A study of Rattus norvegicus with 8 samples.

Results

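Iron is handled in the brain by a small set of proteins that take it up, store it, export it and sense it. Transferrin carries iron in the extracellular fluid and the transferrin receptor brings it into the cell, DMT1 moves it out of the endosome, ferritin keeps the excess in a safe form, and ferroportin, helped by the ferroxidase ceruloplasmin, returns it to the outside. The iron regulatory proteins bind iron-responsive elements in the mRNAs of ferritin, the transferrin receptor and others, and so set their translation or stability. The *substantia nigra* (SN) is known for the iron that it gathers with age and in Parkinson's disease. The genes described here are *Fth1* and *Ftl1* (storage), *Tf*, *Tfrc* and *Slc11a2* (uptake), *Slc40a1* and *Cp* (export), and *Aco1* and *Ireb2* (regulation). They are 9 of the 16678 named genes on the array, and were taken as all probes, other than controls, whose RefSeq accession belongs to one of these rat symbols. That gave 14 of 45598 probes, with 2 probes each for 5 of the genes and 1 probe each for the other 4.

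RNA came from the ipsilateral SN of adult female Sprague Dawley rats, which were 3 months old when they received a unilateral injection of an adeno-associated viral vector into the SN and were killed 20 weeks later. The AAV-αSyn rats (4 arrays) received AAV6 carrying wild-type human α-synuclein at 52000000000 vector genomes per µL. The control AAV-Null rats (4 arrays) received AAV6-Null at 5300000000 vector genomes per µL, so vector dose and transgene cannot be told apart. The promoter that drives the transgene was not given in the sources used here, and the labels do not tie arrays to rats. The methods describe SN tissue taken brain by brain and biological replicates. They speak of fewer arrays per group than were deposited, and all 8 were used. Cy3 was the only dye, and the 8 arrays shared 1 slide and 1 scan. Between 74.8% and 77.5% of the spots on an array were well above background and no spot was saturated. All 14 iron probes were well above background on all 8 arrays and entered the test of 33853 probes.

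All levels below are log2 intensities after quantile normalization, and each holds for 1 probe on these arrays, so levels of different genes were not set against each other. Differences are AAV-αSyn minus AAV-Null on that log2 scale. In bulk tissue, fewer cells of a type and less RNA per cell cannot be told apart. Of the 14 iron probes, 0 passed the threshold of 0.05 after Benjamini–Hochberg adjustment in limma, against a background of 0.0148% of all probes tested, and 0 had an unadjusted p under 0.05, against a background of 5.64%. The groups of arrays overlapped at all 14 probes, where 3.83% of all probes tested had groups that did not overlap. The brightest probe of a gene was higher in AAV-αSyn for 6 of the genes and lower for 3 (*Tfrc*, *Slc11a2* and *Slc40a1*). The median difference over the 14 probes was 0.05, beside 0.0083 over all probes tested, and the median size of the difference was 0.067 beside 0.097. The median within-group SD was also smaller, at 0.13 over the iron probes beside 0.19 over all probes tested. The median difference over the iron probes moved to 0.013 with 75th percentile scaling, 0.016 with array weights, and 0.023, 0.034 and 0.031 without AAV-Null array 3, AAV-Null array 2 and AAV-αSyn array 1. The plot of differences with their intervals gives the range of change that these arrays allow. For 10 of the 14 probes the 95% interval lay within 0.5 of zero on the log2 scale, and the widest bound reached 0.69, at *Slc40a1*.

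**Figure D1:**
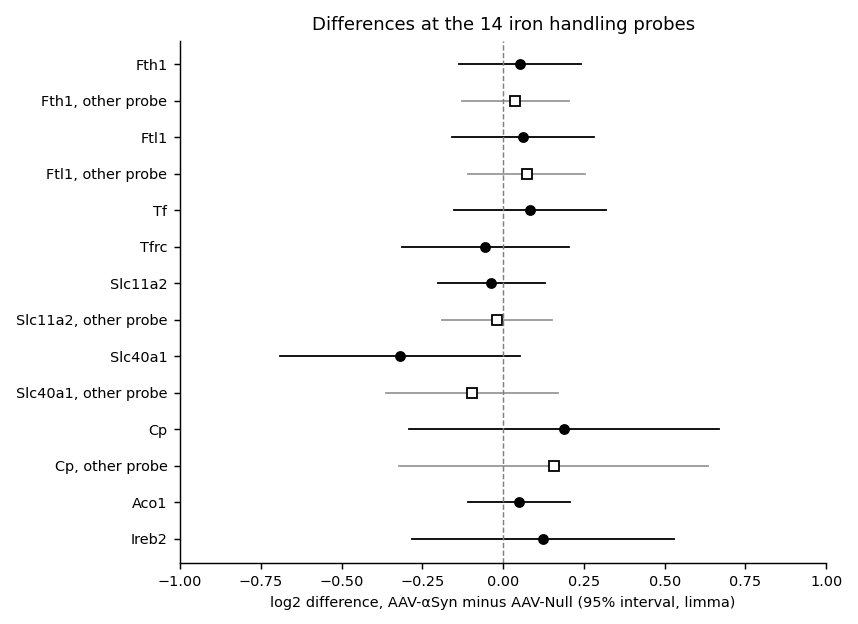
Log2 difference (AAV-αSyn minus AAV-Null) at each of the 14 iron probes, with the 95% interval from limma as a line. Filled circles are the brightest probe of a gene and open squares its other probe. All 14 intervals include zero, and those of *Slc40a1*, *Cp* and *Ireb2* are wider than those of ferritin, *Slc11a2* and *Aco1*.

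Ferritin is a shell built of heavy chains, which oxidise iron on entry, and light chains, which help the iron core to form. The heavy chain gene *Fth1*, at its brightest probe, read 17.73, 17.64, 17.62 and 17.73 on AAV-Null arrays 1 to 4, and 17.55, 17.78, 17.78 and 17.82 on AAV-αSyn arrays 1 to 4. Both the highest and the lowest of the 8 values thus lay in the AAV-αSyn group, with array 1 low and the other 3 above every AAV-Null array. The means were 17.68 ± 0.059 (SD, n = 4) in AAV-Null and 17.73 ± 0.12 (SD, n = 4) in AAV-αSyn. Their difference was 0.052 (95% interval -0.14 to 0.24), with an adjusted p of 0.977 in limma and an exact permutation p of 0.457. The other *Fth1* probe differed by 0.038 (95% interval -0.13 to 0.20), and AAV-αSyn array 1 was again the lowest of the 8, if by little.

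The light chain gene *Ftl1* read 17.36, 17.17, 17.00 and 17.18 in AAV-Null and 17.33, 17.30, 17.19 and 17.13 in AAV-αSyn at its brightest probe. The AAV-αSyn values all lay between the lowest and the highest AAV-Null array. The difference was 0.061 (95% interval -0.16 to 0.28), with an adjusted p of 0.977 in limma. The other *Ftl1* probe gave 0.073 (95% interval -0.11 to 0.25), and at both probes AAV-Null array 3 was the lowest. Without that array the difference was 0.0020 at the brightest probe and 0.021 at the other, and without AAV-Null array 1 it was 0.13 at the brightest. The other probe was at 0.0013 with array weights, 0.046 with 75th percentile scaling and 0.11 in the deposited matrix. For the 2 ferritin chains, the upper bounds of the 4 intervals correspond to between 1.15 and 1.21 of the AAV-Null signal, and the lower bounds to between 0.896 and 0.928 of it. Both ferritin genes have processed copies elsewhere in mammalian genomes. What else these probes bind was not examined, since probe sequences were not used here. Ferritin protein, which the iron regulatory proteins set at the step of translation, was not measured on these arrays.

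**Figure D2:**
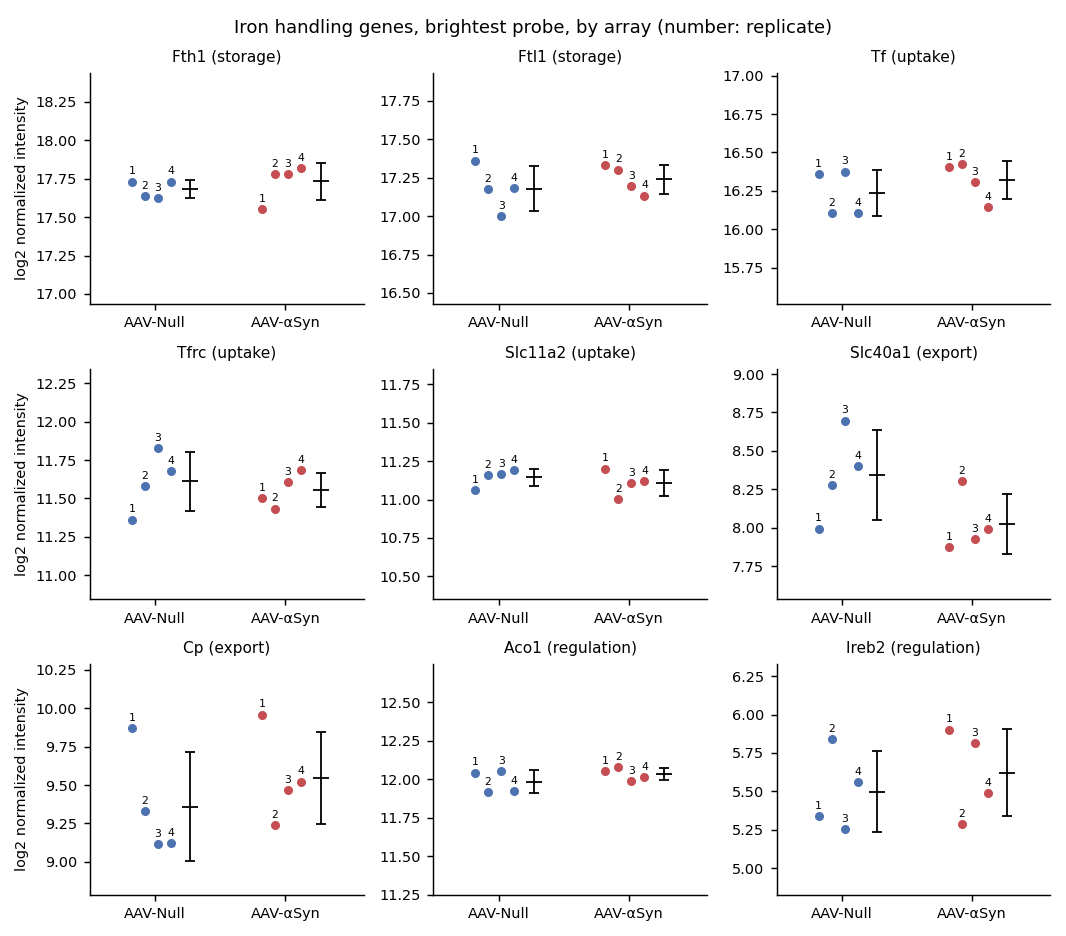
Log2 normalized intensity of the brightest probe of each iron gene on each array, with the replicate number above the point and the mean with its SD (n = 4) beside each group. All panels have the same span but each has its own level, so heights compare arrays and not genes. The groups overlap in all 9 panels, and *Cp* is highest on array 1 of both groups.

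Iron uptake was represented by *Tf*, *Tfrc* and *Slc11a2*. *Tf* encodes transferrin, which oligodendrocytes and the choroid plexus make within the brain. It read 16.36, 16.11, 16.37 and 16.11 in AAV-Null and 16.40, 16.42, 16.31 and 16.15 in AAV-αSyn. The AAV-αSyn arrays 1 and 2 lay just above the highest AAV-Null array and arrays 3 and 4 within the AAV-Null range. The difference was 0.084 (95% interval -0.15 to 0.32), with an adjusted p of 0.973 in limma and an exact permutation p of 0.4. Of the 8 listed oligodendrocyte markers, 7 were higher and 1 lower in AAV-αSyn and 0 passed the adjusted threshold. Their mean centred log2 level ranged from -0.19 to 0.080 over the AAV-Null arrays and from -0.067 to 0.13 over the AAV-αSyn arrays. Of the 6 choroid plexus markers tested, 4 were higher and 2 lower, 0 passed the adjusted threshold, and their level spanned -0.38 to 0.16 in AAV-Null and -0.46 to 0.82 in AAV-αSyn. Its lowest and highest values lay on AAV-αSyn arrays 1 and 2, where *Tf* read 16.40 and 16.42. On array 2 this level was carried mostly by *Ttr*, at 12.33 against 6.64 to 8.91 on the other 7 arrays, and *Kl* was above background on 0 AAV-Null and 2 AAV-αSyn arrays. The part of either list in the *Tf* values was not tested.

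*Tfrc* encodes the transferrin receptor, whose mRNA the iron regulatory proteins stabilise when iron is short. It read 11.36, 11.58, 11.83 and 11.68 in AAV-Null and 11.501, 11.43, 11.61 and 11.68 in AAV-αSyn, as the mean of 2 spots. The AAV-αSyn values lay inside the AAV-Null range, and AAV-Null arrays 1 and 3 were the lowest and the highest of all. The difference was -0.056 (95% interval -0.31 to 0.20), with an adjusted p of 0.987 in limma, and without AAV-Null array 3 its sign turned, to 0.015. *Slc11a2* encodes DMT1, the ferrous iron carrier of endosome and plasma membrane. Its brightest probe read 11.06, 11.16, 11.17 and 11.19 in AAV-Null and 11.20, 11.00, 11.11 and 11.12 in AAV-αSyn, with both extremes among the AAV-αSyn arrays. The difference was -0.037 (95% interval -0.20 to 0.13) there and -0.018 (95% interval -0.19 to 0.15) at the other probe. In limma these had adjusted p-values of 0.986 and 0.992. Over both *Slc11a2* probes, the lowest and highest bounds of these 95% intervals correspond to 0.869 and 1.11 of the AAV-Null signal.

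Export held the 2 largest differences among the brightest probes of the 9 genes with all arrays weighted alike. In several alternatives another gene passed *Cp*. With array weights *Tf* (0.16) and *Ireb2* (-0.13) were larger in size than *Cp* (0.10). Without AAV-Null array 2 *Ireb2* (0.24) was larger than *Cp* (0.18). *Slc40a1* encodes ferroportin, the known iron exporter of animal cells. Its brightest probe read 7.99, 8.28, 8.70 and 8.40 in AAV-Null and 7.87, 8.30, 7.93 and 7.99 in AAV-αSyn. AAV-αSyn arrays 1, 3 and 4 were below the lowest AAV-Null array, while AAV-αSyn array 2 lay in the middle of the AAV-Null range. The means were 8.34 ± 0.29 (SD, n = 4) in AAV-Null and 8.02 ± 0.19 (SD, n = 4) in AAV-αSyn. The difference was -0.32 (95% interval -0.69 to 0.053), or 0.802 of the AAV-Null level, which did not pass the test (adjusted p of 0.924 in limma, exact permutation p of 0.114). The other *Slc40a1* probe read 7.84, 8.19, 8.23 and 8.21 in AAV-Null and 8.03, 8.21, 7.96 and 7.88 in AAV-αSyn. AAV-Null array 1 was the lowest of the 8 there, and the difference was -0.097 (95% interval -0.36 to 0.17), with an adjusted p of 0.973 in limma. The mean of both probes differed by -0.21.

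Single arrays moved the *Slc40a1* value at the brightest probe. Without AAV-Null array 3, the highest, it was -0.20. Without AAV-Null array 1 it was -0.43 with an unadjusted p of 0.0205 in limma, and without AAV-αSyn array 2 it was -0.41 with an unadjusted p of 0.0385. The adjusted p-values of these 2 fits were 0.726 and 0.9999. The other probe was at -0.19 without AAV-Null array 1 and -0.16 without AAV-αSyn array 2. It was at -0.062, -0.065 and -0.052 without AAV-Null array 3, AAV-Null array 4 and AAV-αSyn array 4. By a position number in the file headers, the arrays form 2 sets on the slide, with 2 arrays of each group in each. Within these sets *Slc40a1* differed by -0.44 and -0.20 at the brightest probe and by -0.21 and 0.012 at the other. A microglia list (7 markers, 0 past the adjusted threshold) had a mean centred level from -0.17 to 0.13 in AAV-Null and from -0.13 to 0.13 in AAV-αSyn. The part of any cell type in the *Slc40a1* values was not tested.

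*Cp* encodes ceruloplasmin, the copper ferroxidase that loads exported iron onto transferrin and is made in the brain largely by astrocytes. Its brightest probe read 9.87, 9.33, 9.11 and 9.12 in AAV-Null and 9.96, 9.24, 9.47 and 9.52 in AAV-αSyn. The other probe read 8.47, 7.96, 7.64 and 7.70 in AAV-Null and 8.48, 7.84, 7.99 and 8.10 in AAV-αSyn. Array 1 was the highest of its group at both probes and in both groups, and the 2 probes put all 8 arrays in the same order. The difference was 0.19 (95% interval -0.29 to 0.67) at the brightest probe and 0.16 (95% interval -0.32 to 0.63) at the other. The adjusted p-values in limma were 0.973 and 0.974. The SD within AAV-Null was 0.36 at the brightest probe, against a median within-group SD of 0.19 over all probes tested. Within the 2 sets on the slide *Cp* differed by 0.49 and by -0.11, opposite in sign. Without array 1 of either group, an alternative added after the values were seen, the difference was 0.22 with an adjusted p of 0.964 in limma. Leaving out AAV-Null array 1 gave 0.36 at the brightest probe and 0.33 at the other, and leaving out AAV-αSyn array 2 gave 0.29 and 0.24. The values were lower without AAV-αSyn array 1 (0.051 and 0.031), AAV-Null array 3 (0.11 and 0.057) and AAV-Null array 4 (0.11 and 0.075), and with array weights they were 0.10 and 0.041. Of the 6 astrocyte markers, 2 were higher and 4 lower in AAV-αSyn, 0 passed the adjusted threshold, and their mean centred level spanned -0.33 to 0.25 in AAV-Null and -0.17 to 0.088 in AAV-αSyn. On array 1, where *Cp* was highest, that level was 0.25 in AAV-Null and 0.035 in AAV-αSyn. The part of astrocytes in the *Cp* values was not tested.

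**Figure D3:**
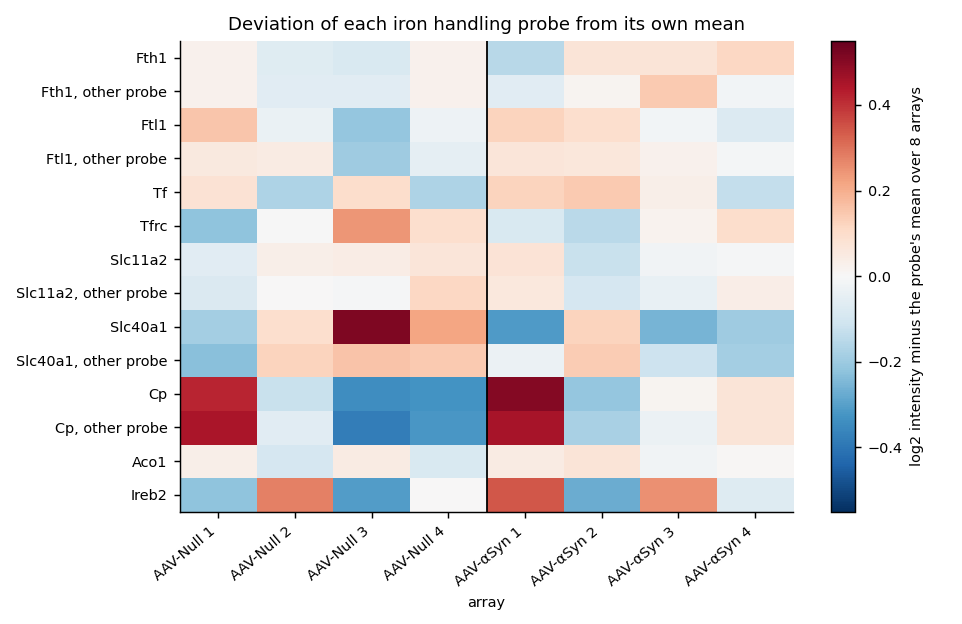
Log2 intensity of each iron probe minus its own mean over the 8 arrays, by array, with AAV-Null left and AAV-αSyn right of the line (red above, blue below the mean). Both *Cp* probes are between 0.42 and 0.50 above their means on array 1 of each group, *Slc40a1* is 0.51 above its mean at the brightest and 0.16 at the other probe on AAV-Null array 3, and the rows of ferritin, *Slc11a2* and *Aco1* are pale in both groups.

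The iron regulatory proteins are relatives with one task. *Aco1* encodes the first, which is a cytosolic aconitase when it holds an iron-sulphur cluster and binds RNA when it does not. It read 12.04, 11.92, 12.05 and 11.92 in AAV-Null and 12.05, 12.08, 11.99 and 12.02 in AAV-αSyn. These values spanned less than any other iron gene's brightest probe, and AAV-αSyn array 2 was the highest. The difference was 0.049 (95% interval -0.11 to 0.21), with an adjusted p of 0.974 in limma and an exact permutation p of 0.286. *Ireb2* encodes the second, which is removed by degradation when iron is plentiful. It read 5.34, 5.84, 5.25 and 5.56 in AAV-Null and 5.90, 5.29, 5.81 and 5.49 in AAV-αSyn. The groups overlapped, but the values separated by the set of arrays on the slide, from 5.56 to 5.90 in one (AAV-Null 2 and 4, AAV-αSyn 1 and 3) and from 5.25 to 5.49 in the other. *Ireb2* was the only one of the 14 iron probes to separate so, and the part of slide position in it was not tested. The share of all probes tested that separated by set is not given here, so this count has no background beside it. The *Ireb2* difference was 0.12 (95% interval -0.28 to 0.53), with an adjusted p of 0.975 in limma and of 0.994 with the set on the slide as a block. The unadjusted p in limma went the other way, from 0.501 to 0.231 with that block. Within the sets the difference was 0.16 and 0.092. Its sign turned with array weights (-0.13) and without array 1 of either group (-0.023), and with the normexp background it was 0.059.

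Where a gene had 2 probes, both gave the same direction for all 5 such genes with all arrays. The second probe of *Fth1* turned to -0.012 with 75th percentile scaling and to -0.0031 without AAV-αSyn array 3, and that of *Slc11a2* to 0.018 without AAV-Null array 4 and to 0.0086 without AAV-αSyn array 2. The order of the 8 arrays matched less often. The probes shared the rank of 8 arrays for *Cp*, of 4 for *Slc40a1* and *Slc11a2*, and of 1 for *Fth1* and *Ftl1*. Both sets on the slide gave the same direction for 5 of the 9 genes at the brightest probe (*Ftl1*, *Tfrc*, *Slc11a2*, *Slc40a1* and *Ireb2*) and opposite directions for *Fth1*, *Tf*, *Cp* and *Aco1*. When arrays were left out, singly or array 1 of both groups, the differences ranged from 0.022 to 0.13 for *Fth1*, from 0.0020 to 0.13 for *Ftl1* and from 0.040 to 0.14 for *Tf*. For *Slc11a2* they ranged from -0.096 to -0.0016 and for *Aco1* from 0.028 to 0.073. With 75th percentile scaling *Fth1* was at 0.013, *Ftl1* at 0.014, *Tf* at 0.052 and *Slc11a2* at -0.024. With array weights *Fth1* was at 0.10, *Ftl1* at 0.030, *Tf* at 0.16, *Tfrc* at -0.00036 and *Aco1* at 0.086. With 4 arrays against 4 the exact test has 70 splits and can give no p under 0.0286.

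Profiles over the 8 arrays were compared with those of 12596 other named genes above background on all arrays. Each profile was scaled to an SD of 1, and likeness was the root mean square difference between scaled profiles, given here as a description. The nearest profile to *Fth1* was that of *Cntnap5a* (0.32) and to *Ftl1* that of *Cks2* (0.18). For the uptake genes these were *Abca8a* for *Tf* (0.17), *Eef1akmt1* for *Tfrc* (0.19) and *Fcf1* for *Slc11a2* (0.35). For the export genes they were *Nat8f2* for *Slc40a1* (0.17) and *Cxcl13* for *Cp* (0.18). *Gnb4* was nearest to *Aco1* (0.23) and *Pdcd2* to *Ireb2* (0.30). The second nearest was at 0.22 to 0.42 for all 9 genes, and among them only *Pecam1*, an endothelial marker second to *Ireb2*, was on a list used here. No iron gene had another iron gene among its nearest 2, which with 12596 candidates does not tell whether the iron genes vary together.

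A list of 42 other genes of iron metabolism was read on the same arrays. Of these, 35 were tested, *Hjv*, *Ltf* and *Hephl1* were above background on no array, and no named probe was found for 4. The adjusted threshold was passed by 0 of the 35, and 1 had an unadjusted p under 0.05, where 5.64% of all probes tested did. Of the 35, 18 were higher and 17 lower in AAV-αSyn, with a median difference of 0.0016. Groups that did not overlap were found for 1 of the 35, the same gene, against 3.83% of all probes tested. Neither count exceeds its background.

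That gene was *Steap2*, a metalloreductase that turns ferric into ferrous iron. It read 12.01, 12.10, 11.89 and 11.91 in AAV-Null and 12.22, 12.24, 12.10 and 12.26 in AAV-αSyn, so that each AAV-αSyn array was above each AAV-Null array, if by little for array 3. The difference was 0.23 (95% interval 0.052 to 0.41), with an adjusted p of 0.766 in limma and an exact permutation p of 0.0286, the smallest that the design allows. With array weights it was 0.13 and without array 1 of both groups 0.24, with an unadjusted p in limma of 0.0583 and 0.0586. Among the other genes of entry and reduction, 5 were higher and 4 lower. The siderophore-binding *Lcn2*, made by reactive astrocytes, differed by 0.33 (95% interval -0.45 to 1.11), and its AAV-Null values ran from 6.46 to 8.05. Without AAV-Null array 4 it differed by 0.060, without AAV-αSyn array 1 by 0.13, without AAV-Null array 1 by 0.59 and with array weights by 0.081.

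Of the 6 genes for receptors and sensing, which include the second transferrin receptor *Tfr2* and the hormone hepcidin (*Hamp*), 2 were higher and 4 lower, and the differences lay between -0.13 and 0.068. Export and oxidation added *Heph*, *App* and *Prnp*, with differences between -0.058 and 0.071. The storage group was *Ncoa4*, the receptor that takes ferritin to the lysosome, the iron chaperone gene *Pcbp2* and mitochondrial ferritin (*Ftmt*), between -0.11 and 0.029. The 7 genes for mitochondria and iron-sulphur clusters ranged from -0.11 to 0.19, the top being the mitochondrial iron importer *Slc25a37* (95% interval -0.19 to 0.56), which was at 0.070 without AAV-Null array 4, 0.30 without AAV-Null array 1, 0.023 with array weights and 0.085 with the normexp background. Among 6 genes of haem, differences ran from -0.30 to 0.23. *Cd163*, a macrophage receptor for haemoglobin bound to haptoglobin, was at -0.30 (95% interval -1.06 to 0.46). Single arrays moved it from -0.065, without AAV-Null array 4, to -0.56, without AAV-Null array 3, with -0.16 and -0.19 without AAV-αSyn arrays 2 and 3 and -0.46 without AAV-αSyn array 1. With the normexp background it was -0.15. *Hp*, haptoglobin itself, was at 0.23 (95% interval -0.016 to 0.47), with an adjusted p of 0.902 in limma. Its unadjusted p was under 0.05 with array weights (0.0121), with the replicate number as a block (0.0394), without AAV-Null array 4 (0.0149) and without AAV-αSyn array 3 (0.0420), and the lowest adjusted p of these was 0.179. None of these groups had a member past the adjusted threshold.

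**Figure D4:**
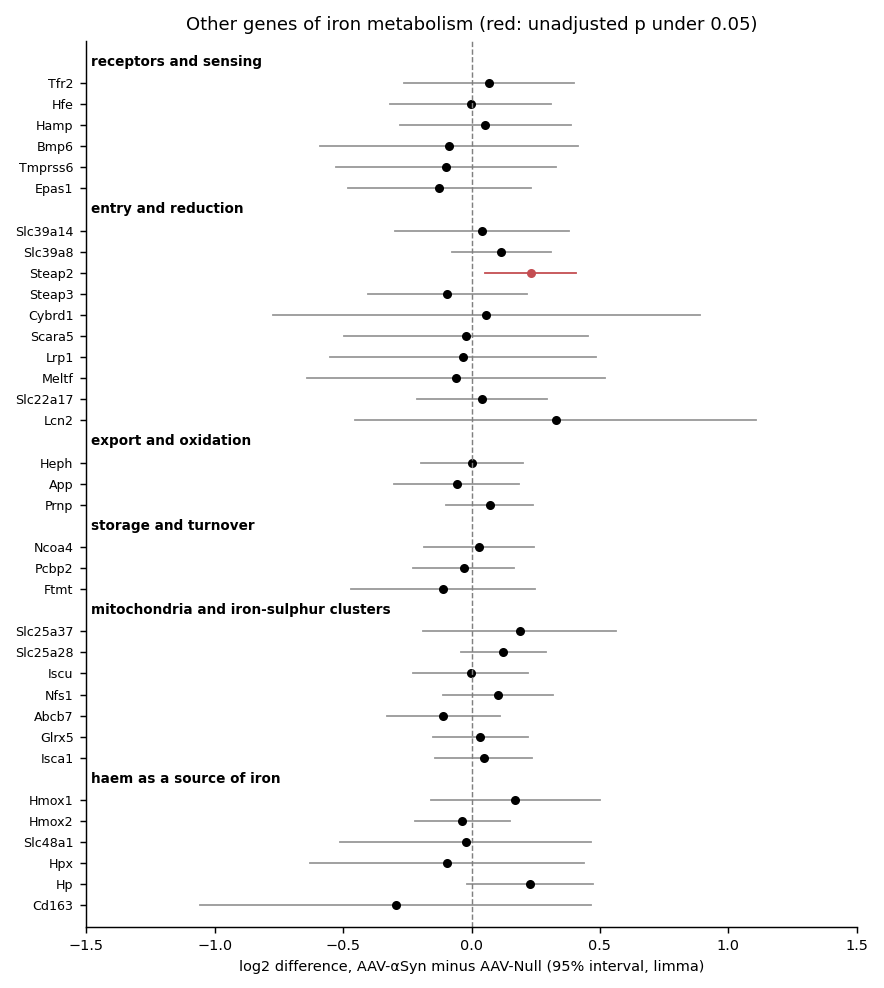
Log2 difference (AAV-αSyn minus AAV-Null) with its 95% interval from limma for the 35 other iron metabolism genes tested, brightest probe each, by group. Only the interval of *Steap2* (red), from 0.052 to 0.41, excludes zero without adjustment for the number of probes.

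Genes of dopaminergic neurons, the cells that α-synuclein burdens in Parkinson's disease, were read as a check of the model. *Th*, the rate-limiting enzyme of dopamine synthesis, read 16.70, 16.51, 16.30 and 16.43 in AAV-Null and 15.99, 15.99, 16.01 and 15.88 in AAV-αSyn, and the groups did not overlap. The difference was -0.52 (95% interval -0.74 to -0.30), with an adjusted p of 0.484 in limma and an exact permutation p of 0.0286. *Slc6a3*, the dopamine transporter, differed by -0.79 (95% interval -1.38 to -0.21), with an adjusted p of 0.747. All 6 dopaminergic markers were above background on all arrays and lower in AAV-αSyn, 4 of them with an unadjusted p under 0.05, beside 5.64% of all probes tested, and 0 past the adjusted threshold. Their mean centred level ran from 0.066 to 0.49 over the AAV-Null arrays and from -0.39 to -0.052 over the AAV-αSyn arrays. The share of dopaminergic neurons in the iron gene values was not tested.

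Haemoglobin is a large store of iron in tissue that holds blood. The 6 blood markers were all lower on average in AAV-αSyn, 0 of them past the adjusted threshold, and their mean centred level ran from -0.92 to 0.79 in AAV-Null and from -0.38 to 0.43 in AAV-αSyn. The 5 endothelial markers lay between -0.094 and 0.049 in AAV-Null and between 0.000084 and 0.062 in AAV-αSyn. The choroid plexus list had 6 of its 7 markers tested, since *Cldn2* was at background. Its member *Otx2*, which some midbrain dopaminergic neurons also express, differed by -0.49 and -0.53 at its 2 probes, with an adjusted p of 0.555 and 0.548 in limma.

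**Figure D5:**
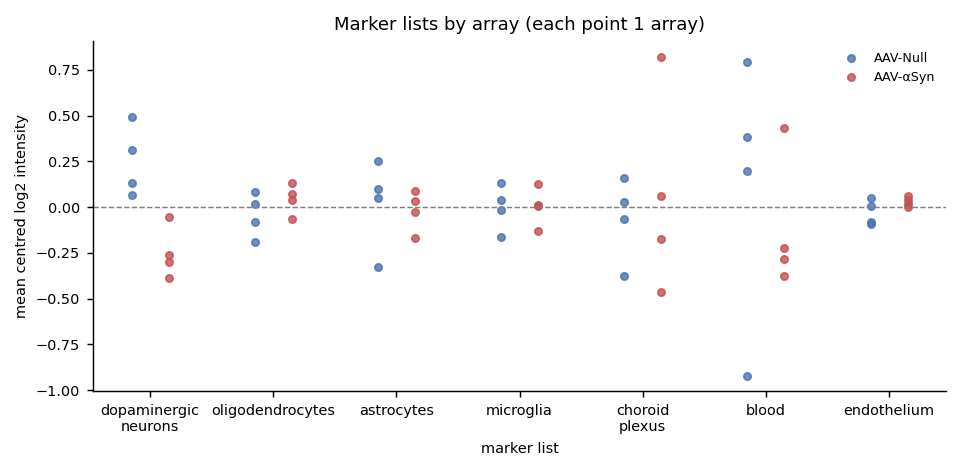
Mean centred log2 intensity of each marker list on each array (1 point an array, AAV-Null blue, AAV-αSyn red). The dopaminergic list separates the groups (0.066 to 0.49 against -0.39 to -0.052), while the groups overlap for the other 6 lists, with the widest spread for blood and choroid plexus.

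The letters of the iron-responsive element loop, CAGTG with a C 6 bases before it and 1 more base after it, were sought on both strands of RefSeq promoter windows of 300 bases (build GRCr8). The ferritin genes *Fth1* and *Ftl1* had no window and were not searched. The other 7 iron genes had 8 windows in all, and 0 of these 8 had a match. Of all 33469 windows, 18.3% had a match on either strand and 9.55% on the strand of the gene. These windows reach only a short way into the transcript, where the element is read as RNA, so they leave most of each mRNA unsearched. The count of 0 thus does not tell which of these mRNAs hold the element.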

How the data were processed

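RNA of the ipsilateral SN was measured on 8 one-colour Agilent SurePrint G3 Rat arrays. The authors deposited, per spot, the background-corrected intensity from Feature Extraction (11.5.1.1 in the submitters' processing notes, 12.0.3.2 in the file headers), and a matrix of quantile-normalized log2 values, which was used as an alternative. The authors' methods name removal of control and dim spots, quantile normalization and limma.

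From the scanner files, control and outlier spots were left out. A probe was tested when a share of 0.5 or more of its spots was well above background on 1 or more arrays (33853 probes, 11745 left out). Intensities were taken to log2, quantile normalized and averaged over spots. Groups, taken from the sample titles, were compared with limma 3.58.1 (R 4.3.3) by lmFit and eBayes, two-sided, with Benjamini–Hochberg adjustment over all probes tested. Exact permutation tests of the difference in means were two-sided over 70 splits. Intervals are at 95%. The number of arrays limits the precision. RefSeq accessions paired 21229 of 45598 probes with a symbol, and a gene is given by its brightest probe. The procedure was tested on simulated data.

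The genes and lists were chosen with earlier results of these data known. Named beyond the 9 genes are pathway genes with an unadjusted p under 0.05, the 4 others with the largest difference, *Th* and *Slc6a3*. *Hjv*, *Ltf*, *Otx2* and further list members are named to say what a list held. Alternatives were scaling by the 75th percentile or cyclic loess, normexp with an offset of 50, other filters, the deposited matrix, other variance models, array weights, the replicate number or set of arrays on the slide as a block, the mean of a gene's probes and leaving out arrays. A protein alignment of the ferritin chains was not run.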

Additional observations from a re-analysis of the deposited data

Results flagged for a closer look

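In 56 groups of 4 arrays (the 14 iron probes, the other named genes and the marker lists, each in both groups), 2 had an array set apart by a gap, as a share of the group's range, above Dixon's 95% critical value. Chance flags about 1 group in 20, which is 2.8 of 56. At the brightest *Fth1* probe AAV-αSyn array 1 (17.55) lay below the other 3 by 0.849 of the range, and without it the difference between the groups was 0.11 in place of 0.052. At the second *Slc40a1* probe AAV-Null array 1 (7.84) lay below the other 3 by 0.906 of the range. The same array was also the lowest AAV-Null array at the brightest *Slc40a1* probe (7.99).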

How the results depend on the processing

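Of the 14 iron probes, 0 passed the adjusted threshold in every alternative run, and 0 had an unadjusted p under 0.05 in limma except without AAV-Null array 1 or without AAV-αSyn array 2, when 1 (*Slc40a1*) did, so that leaving out single arrays gave 0 to 1. Over all probes the adjusted threshold was passed by 5, and by 12 with array weights, 3 with the set on the slide as a block, 1 without array 1 of both groups and 3 to 5 when single arrays were left out. Counts at an unadjusted p under 0.05 were 1908, 5761 with array weights and 1439 to 2800 with single arrays left out. Leaving aside the variance models and blocks, which cannot move a difference in this balanced design, the 9 iron genes kept their direction in 155 of 158 values and the second probes in 81 of 85. *Ireb2* turned to -0.13 with array weights and to -0.023 without array 1 of both groups, and *Tfrc* to 0.015 without AAV-Null array 3. In all fits with array weights, AAV-Null array 2 had a weight of 4.49, against 0.22 to 1.77 for the other arrays. That array was the highest AAV-Null array for *Ireb2*. Over single arrays left out, *Tfrc* ranged from -0.14 to 0.015 and *Ireb2*, with array 1 of both groups left out too, from -0.023 to 0.24. The second *Fth1* probe turned to -0.012 with 75th percentile scaling and to -0.0031 without AAV-αSyn array 3, and ranged from -0.0031 to 0.075 with arrays left out. The second *Slc11a2* probe turned to 0.018 and 0.0086 without AAV-Null array 4 and AAV-αSyn array 2, and ranged from -0.070 to 0.018. The cause was not tested. The lowest adjusted p of an iron gene was 0.363, with array weights, for *Slc40a1*. All 119 such values of the other named genes kept their direction. Most of these genes were named for the p or the size of their difference in these same data, which favours that outcome.

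The replicate numbers coincide with the place of an array along the slide. Arrays of the same number deviated from their group means with correlations of 0.14, 0.27, 0.041 and -0.0022, and 2 of the 4 AAV-Null arrays correlated best with the AAV-αSyn array of their own number, so the numbers were not taken to pair the samples. With the replicate number as a block, 0 of the 14 iron probes and 0 of all probes passed the adjusted threshold, and 0 iron probes and 2218 of all probes had an unadjusted p under 0.05. The *Slc40a1* difference was -0.32 with an adjusted p of 0.80 in limma in that replicate block fit. The 4 arrays per group limit all differences given here, and human α-synuclein, iron content and protein were not measured on these arrays.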
